A study of Mus musculus with 6 samples.

Results

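Mouse chromosome 11 carries many genes that a cell biologist knows by name, among them the tumour suppressors Trp53 and Brca1, the large subunit of RNA polymerase II (Polr2a), the spliceosome core protein Prpf8 and the nucleolar protein Npm1. A list of 52 such genes was looked up in the deposited expression table, whose unit is FPKM, a fragment count corrected for how long the transcript is and how many fragments of the library were mapped, and the 47 that averaged 5 FPKM or more across the 6 libraries are described here, out of 25170 gene symbols in all. The values used to choose them were this mean and, since the chromosome was already known from the same libraries to stand higher in knockout cells, the knockout to wild type contrast itself. That contrast is therefore a description: its counts of calls and its intervals give the size of its error and support nothing. The tests are those of the response to medium and of the difference in the knockout effect between media.

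The study compared E14 cells, an established mouse embryonic stem cell (ESC) line, with Hnrnpf knockout cells; Hnrnpf encodes an RNA-binding protein that acts in splicing at G-rich sequences. One set of libraries came from cells in serum medium with leukemia inhibitory factor (LIF), the cytokine that keeps mouse ESCs self-renewing, and the other from cells kept 4 days without LIF. Each medium has 1 wild type library and 2 knockout libraries, called knockout 1 and knockout 2 by their labels. Which stretch of Hnrnpf was deleted, how many clones were used and whether a knockout number is the same clone in both media are not in the labels. The p-values therefore measure how far these libraries differ among themselves, a spread that may be technical.

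Most genes are present on a pair of chromosomes, and the amount of their messenger RNA tends to follow the number of gene copies. An extra chromosome beside the usual pair would therefore be read as even dosage, a ratio near 1.5 for every gene on it, although feedback on a gene's own mRNA, unequal alleles or a change in regulation can move single genes away from it. Cultured mouse ESC lines are known to gain whole chromosomes, chromosome 11 among them. DNA copy number was not measured in these libraries, and an extra copy cannot be told apart here from other differences between the knockout and wild type cells. Since RNA was taken from whole cultures, fewer cells of a type and less RNA per cell cannot be told apart either.

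Hnrnpf itself had, with LIF, 342 FPKM in wild type cells and 98.7 and 37.1 in knockout 1 and 2, and 335 against 95.2 and 27.8 after LIF removal. Each knockout library was thus lower than both wild type ones but kept some transcript. The summed level of the pluripotency markers Pou5f1, Sox2, Nanog, Zfp42 and Esrrb was between 1973 and 2313 FPKM with LIF and between 1117 and 1457 after its removal. Summed levels of markers of other cell types were low, but several differed between genotypes. With LIF, the 7 fibroblast markers summed to 3.39 FPKM in wild type cells against 7.68 and 8.39 in knockout 1 and 2, most of it Thy1 (3.16 against 7.01 and 7.01), and to 5.97 against 5.85 and 8.58 after LIF removal. The 5 primitive endoderm markers summed to 2.03 against 3.80 and 4.25, and to 5.33 against 7.68 and 11.7. The 4 trophoblast markers summed to 5.24 against 6.48 and 7.34, and to 15.9 against 11.3 and 17.3. Of the markers that define these types, Lum was at 0 in 5 of 6 libraries and Elf5 in 4, whereas Hand1 with LIF was at 0 in wild type cells against 0.739 and 2.24. The part of these markers in the ratios was not tested. The FPKM in a library added up to 456155 at the lowest and 556318 at the highest.

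The ratio of a gene in a medium is the mean FPKM of the 2 knockout libraries divided by the FPKM of the wild type library, and a ratio from 1.3 to 1.7 is called near 1.5. With LIF, 29 of the 47 members (61.7%) were near 1.5, 11 were below and 7 above, with a median of 1.48 and a range from 1.06 to 2.61. The number below was 6 after scaling on genes outside chromosomes 6, 8 and 11 and 5 after quantile normalization. After LIF removal, 25 (53.2%) were near 1.5, 17 below and 5 above, with a median of 1.36 and a range from 0.946 to 2.64. In this medium the number below was 13 after the same scaling and 12 after quantile normalization. Of all genes averaging 5 FPKM or more, 9.8% had a ratio in that span with LIF and 10.7% after LIF removal. All 4 knockout libraries lay above the wild type library of their medium for 42 of the 47, against 20.5% of all genes of that level. The other 5, Erbb2, Gna13, Smarce1, Cbx2 and Nme2, were above it in 3 of 4 libraries. Over both media, 28 of the 47 were called higher and none lower by limma (linear models on log2(FPKM + 1), Benjamini-Hochberg adjusted p under 0.05), against 10.5% of all genes called, 5.79% higher and 4.67% lower. Nothing is read from that count or from the 42 of 47, because the chromosome was chosen on this contrast. Both knockout libraries of a medium are also set against the same wild type library. The limma count was 17 without knockout 2 with LIF and 0 without either wild type library.

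**Figure D1:**
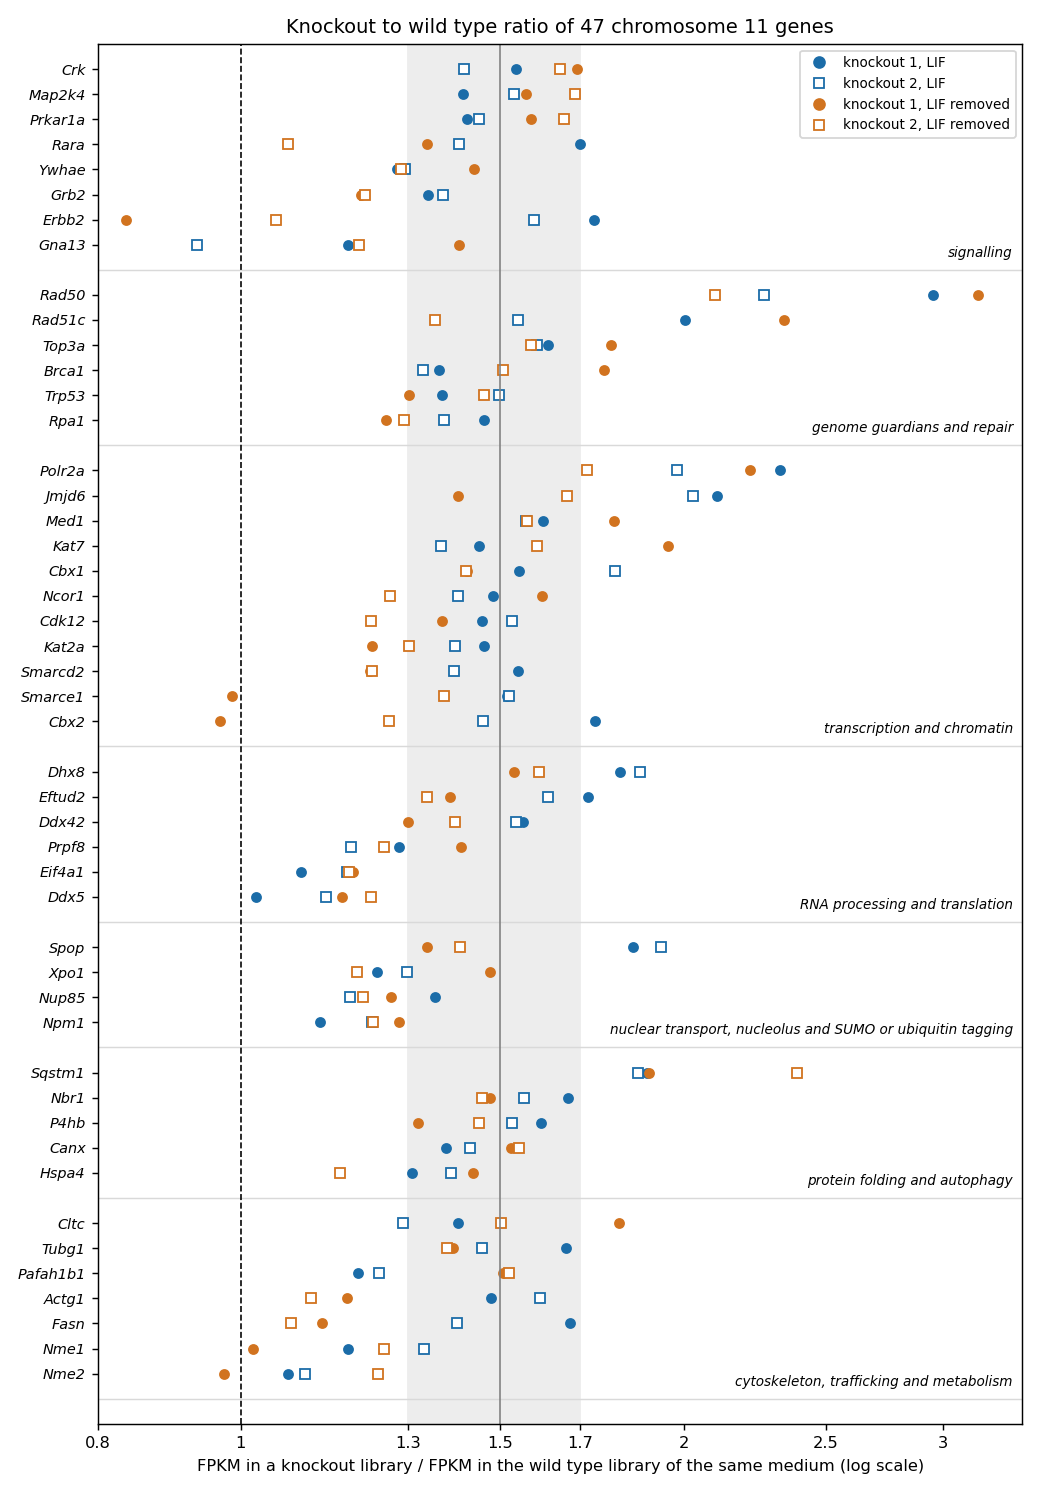
Ratio of each knockout library to the wild type library of its medium for the 47 members, grouped by role (x axis, log scale; filled circles, knockout 1; open squares, knockout 2; blue, with LIF; orange, LIF removed). The grey band marks 1.3 to 1.7, the solid line 1.5 and the dashed line 1. Most points lie in or beside the band, Rad50, Polr2a and Sqstm1 lie to its right in all 4 libraries, and Ddx5, Eif4a1 and Nme2 lie to its left.

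The rest of chromosome 11 had similar medians. Its 709 other genes of at least 5 FPKM had a median ratio of 1.42 with LIF and 1.40 after LIF removal, and 43.0% and 45.7% of them were near 1.5. Genes outside chromosomes 6, 8 and 11 (6 and 8 were set aside because their genes also differed between knockout and wild type in earlier results of these data) had medians of 0.936 and 0.959. The members ran less widely than the other genes of the chromosome, with an SD of the log2 ratio of 0.26 against 0.46 with LIF and 0.27 against 0.43 after LIF removal; no test of this difference was made.

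**Figure D2:**
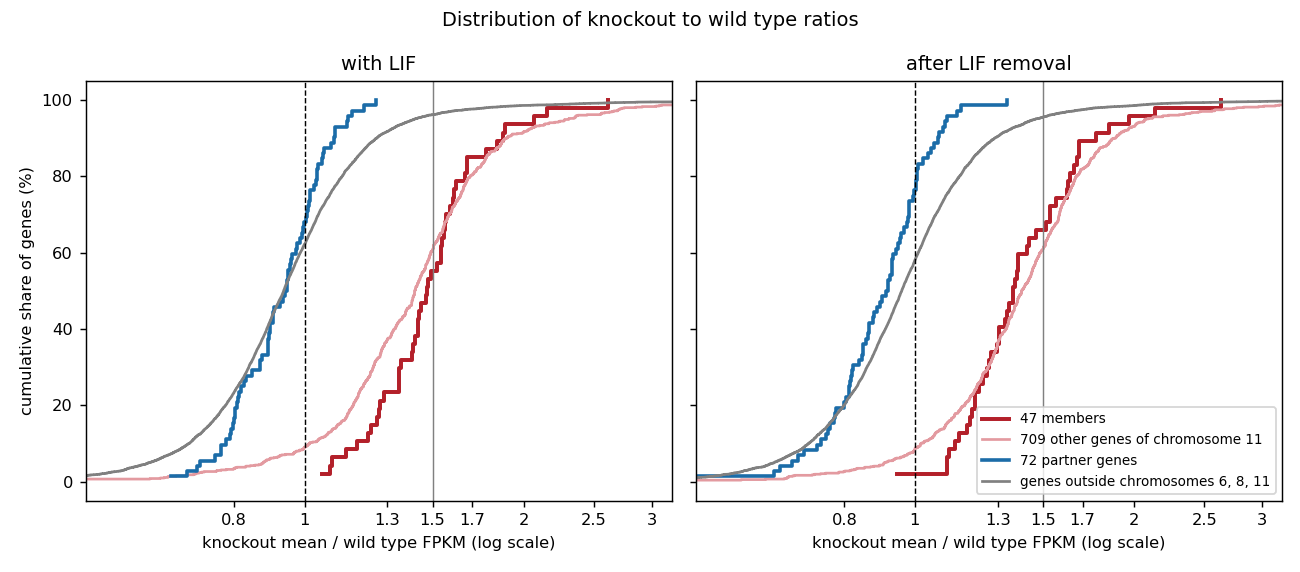
Cumulative share of genes (y axis, %) by knockout to wild type ratio (x axis, log scale) with LIF and after LIF removal, for the 47 members, the 709 other genes of chromosome 11, 72 partner genes on other chromosomes and the genes outside chromosomes 6, 8 and 11. The curves of both chromosome 11 sets cross 50% between 1.36 and 1.48, those of the partner genes and of the other chromosomes between 0.915 and 0.959.

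The shift was present in every window along the chromosome. In windows of 10 Mb, the median difference of the 996 tested genes (mean of at least 1 FPKM) from wild type lay between 0.30 and 0.67 on the log2(FPKM + 1) scale in every window and each of the 4 knockout libraries; an even ratio of 1.5 is 0.58 on the log2 scale for a highly expressed gene. The lowest window value was 0.30, in knockout 1 after LIF removal in the window from 0 to 10 Mb, and the highest was 0.67, in the same library in the window from 20 to 30 Mb. The window from 10 to 20 Mb holds only 16 tested genes. Members sit between Xpo1, which starts at 23256041, and Fasn, which ends at 120824547 (GRCm38, GENCODE annotation), and the windows from 90 to 100 Mb and from 100 to 110 Mb hold 10 and 11 of them.

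**Figure D3:**
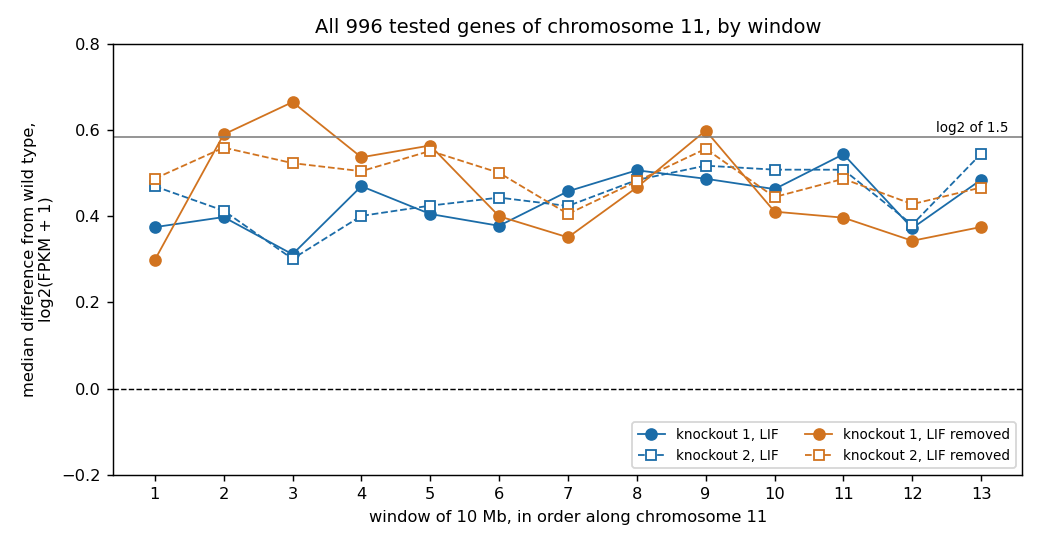
Median difference between each knockout library and the wild type library of its medium on the log2(FPKM + 1) scale (y axis) for the tested genes in 13 windows of 10 Mb in order along chromosome 11 (x axis). The grey line marks the log2 of 1.5. All 52 points lie between 0.30 and 0.67, above the dashed line at 0.

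The members furthest above even dosage were Rad50, Polr2a and Sqstm1. Rad50 (chr11:53649519-53707319, minus strand), the ATPase of the complex with Mre11a and Nbn that holds broken DNA ends, was at 15.6 FPKM in wild type cells with LIF and at 46.2 and 35.5 in knockout 1 and 2. After LIF removal it was 14.5 FPKM against 46.1 and 30.5. Even the lowest knockout library was at 2.10 times its wild type library, and the ratios of the 2 media were 2.61 and 2.64. The 10 nearest genes of at least 5 FPKM, taken evenly from both sides, had median ratios of 1.46 and 1.49. Its partner genes were not higher: Mre11a, on chromosome 9, had ratios of 0.780 and 0.880, and Nbn, on chromosome 4, 0.977 and 0.931.

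Polr2a (chr11:69733997-69758637, minus strand), the catalytic subunit of RNA polymerase II, was at 87.4 FPKM in wild type cells with LIF and at 203 and 173 in knockout 1 and 2. Once LIF was removed it was at 112 against 248 and 192, and the ratios were 2.15 and 1.97. Polr2b, the second-largest subunit, on chromosome 5, had 1.06 and 0.925. Sqstm1, the autophagy receptor p62, went from 158 FPKM to 298 and 294 with LIF and from 106 to 202 and 254 after LIF removal. Its ratios were 1.88 and 2.14, while Keap1, which p62 binds, had 0.890 and 0.978. For these 3 genes all knockout libraries were above all wild type libraries, and the 95% limma interval of the genotype difference over both media, as a fold of FPKM + 1, lay above 1.5: 1.86 to 3.33 for Rad50, 1.65 to 2.51 for Polr2a and 1.65 to 2.40 for Sqstm1. The intervals are not adjusted for the number of members and describe a contrast that chose them. Exons of Sqstm1 overlap those of Mrnip on the opposite strand by up to 580 bases, and whether counting used strand is not given in the sources used here.

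Rad51c, Jmjd6 and Dhx8 complete the 6 highest. Rad51c, which acts in homologous recombination, was at 7.13 FPKM in wild type cells against 14.3 and 11.01 with LIF, and at 4.11 against 9.61 and 5.57 after LIF removal. Here the knockout libraries differed, with ratios of 2.34 in knockout 1 and 1.36 in knockout 2 after LIF removal. Jmjd6, a lysyl hydroxylase that acts on splicing factors, was above the span with LIF and inside it after LIF removal (ratios of 2.07 and 1.54), at 44.7 FPKM against 94.1 and 90.7, and was at 55.2 against 77.6 and 92.0 after LIF removal. Its exons overlap those of Mettl23 on the opposite strand. Dhx8, the helicase that releases spliced mRNA, was at 30.8 against 55.8 and 57.6, and at 37.1 against 56.9 and 59.2 after LIF removal, with ratios of 1.84 and 1.57.

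The 6 lowest members were Npm1, Nme1, Gna13, Eif4a1, Ddx5 and Nme2. Nme2, a nucleoside diphosphate kinase, was at 762 FPKM in wild type cells against 821 and 843 with LIF, and at 672 against 654 and 833 after LIF removal. The knockout values thus lay on both sides of wild type without LIF, and the ratios were 1.09 and 1.11. Ddx5 (p68), an RNA helicase of splicing and transcription, was at 317 against 325 and 362, and at 334 against 392 and 410, with ratios of 1.08 and 1.20. Its close paralog Ddx17, on chromosome 15, had ratios of 0.711 and 0.822. Eif4a1, the helicase of the translation initiation factor eIF4F, was at 255 against 280 and 301, and at 206 against 246 and 244, with ratios of 1.14 and 1.19.

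Gna13, a G protein alpha subunit, was at 26.3 FPKM against 31.0 and 24.5 with LIF, the only case among the 47 in which a knockout library with LIF lay below wild type. After LIF removal it was at 22.7 against 31.9 and 27.3, and the ratios were 1.06 and 1.305. Nme1, the neighbour and close paralog of Nme2, was at 132 against 157 and 176, and at 152 against 154 and 190, with ratios of 1.26 and 1.13. A read-through gene shares exons with both Nme1 and Nme2, and their sequences are alike, so the split of fragments between them is uncertain. Npm1, the nucleolar chaperone nucleophosmin, was the most abundant member, at 1652 FPKM against 1870 and 2029, and at 1591 against 2038 and 1957, with ratios of 1.18 and 1.26. The 95% limma interval over both media lay below 1.5 for these 6 and for Grb2 and Nup85. After scaling on genes outside chromosomes 6, 8 and 11 it did so only for Npm1, Eif4a1, Ddx5 and Nme2, and after quantile normalization only for Gna13, Eif4a1, Ddx5 and Nme2. The genotype difference of Npm1 was 0.28 on the log2(FPKM + 1) scale and 0.57 after quantile normalization. For 36 of the 47 members the interval held 1.5, and for 2 of these it held 1 as well.

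Neighbouring genes could differ. Trp53 (chr11:69580359-69591873), Eif4a1 (chr11:69666936-69672423) and Polr2a lie close together, and their ratios over both media (geometric means) were 1.41, 1.16 and 2.06. The medians of the 10 nearest genes in the 2 media were 1.40 and 1.43 for Trp53, 1.41 and 1.46 for Eif4a1, and 1.298 and 1.27 for Polr2a. Taken as geometric means over both media, the neighbours had medians of 1.61 for Trp53, 1.68 for Eif4a1 and 1.33 for Polr2a. On that measure Trp53 and Eif4a1 lay below their neighbours and Polr2a above. Highly expressed members tended to have lower ratios: Spearman's correlation between mean FPKM and ratio was -0.33 over the 47 members, which share the 6 libraries, and -0.09 over the 709 other genes of the chromosome. The 12 members of at least 200 FPKM, a bound set after seeing the values, had a median ratio of 1.33 and the 35 others 1.44, and the other genes of the chromosome gave 1.32 (36 genes) and 1.43 (673 genes). These values use FPKM as deposited. Quantile normalization moved the log2 genotype difference of Npm1 from 0.28 to 0.57 and of Ywhae from 0.40 to 0.65. It moved that of Eif4a1 from 0.22 to 0.29 and of Ddx5 from 0.19 to 0.28. Whether the trend with level remains under that scaling was not tested.

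Promoter sequence is shown for 2 of the highest and 2 of the lowest members, to set genes at the ends of the range side by side. They are the most extreme ones with a single entry in RefSeq's promoter table (GRCm38.p6, matched by symbol for 39 of the 47 members), and the 250 bases before the start are given. Capitals mark motif matches on either strand, and matches that overlap are all marked. The motif searched as the GC box, bound by Sp1 and its relatives, reads GGGCGG. For the box bound by the factor NF-Y the letters searched were CCAAT. The motif bound by the TATA-binding protein was searched as TATAAA. The core of the antioxidant response element, bound by Nrf2, was searched as TGACNNNGC. The window of Polr2a lies at chr11:69758634-69758883, Sqstm1 at chr11:50210821-50211070, both on the minus strand, Gna13 at chr11:109362544-109362793 on the plus strand and Eif4a1 at chr11:69672424-69672673 on the minus strand.
Polr2a: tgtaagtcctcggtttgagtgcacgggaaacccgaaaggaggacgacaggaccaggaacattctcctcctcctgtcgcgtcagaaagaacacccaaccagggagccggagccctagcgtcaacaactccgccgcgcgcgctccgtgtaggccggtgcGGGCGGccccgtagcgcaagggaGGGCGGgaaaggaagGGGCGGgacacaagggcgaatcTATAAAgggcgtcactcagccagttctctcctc
Sqstm1: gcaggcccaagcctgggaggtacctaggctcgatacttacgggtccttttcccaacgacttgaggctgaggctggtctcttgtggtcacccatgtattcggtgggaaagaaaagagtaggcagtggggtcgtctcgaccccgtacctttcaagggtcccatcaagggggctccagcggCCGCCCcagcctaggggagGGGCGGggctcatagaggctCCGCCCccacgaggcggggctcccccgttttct
Gna13: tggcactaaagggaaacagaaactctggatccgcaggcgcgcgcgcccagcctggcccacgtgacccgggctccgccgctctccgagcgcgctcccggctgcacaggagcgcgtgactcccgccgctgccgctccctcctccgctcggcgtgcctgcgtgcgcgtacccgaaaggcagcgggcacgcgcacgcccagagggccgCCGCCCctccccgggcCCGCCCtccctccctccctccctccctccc
Eif4a1: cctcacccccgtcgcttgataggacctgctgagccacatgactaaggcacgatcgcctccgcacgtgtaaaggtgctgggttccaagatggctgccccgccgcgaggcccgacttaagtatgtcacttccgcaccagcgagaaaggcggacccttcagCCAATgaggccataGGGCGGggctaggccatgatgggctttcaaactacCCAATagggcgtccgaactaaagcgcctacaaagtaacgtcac

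Both the high pair and the low pair carry GC boxes, 3 each in Polr2a and Sqstm1, 2 in Gna13 and 1 in Eif4a1. Polr2a has a TATA box and Eif4a1 2 CCAAT boxes, and no match to the antioxidant response element core is in these 4 windows. Across all 32851 promoter windows of the table, 32.7% hold a GC box, 33.8% a CCAAT box, 12.4% a TATA box and 10.2% the antioxidant core; of the 57 windows of members, 28, 26, 5 and 5 do. CpG dinucleotides numbered 23, 14, 33 and 18 in the order shown, against a median of 18 in the members' windows and 6 in all windows. With 4 genes shown, nothing is read from these counts about the ratios.

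Among the DNA repair and damage response members, Trp53 itself was close to even: it was at 286 FPKM in wild type cells against 392 and 428 with LIF, and at 216 against 281 and 316 after LIF removal, with ratios of 1.43 and 1.38. All knockout libraries were above the wild type library of their medium. Mdm2, the ubiquitin ligase that p53 induces and that degrades it, on chromosome 10, had ratios of 0.946 and 1.34, and Mdm4, its relative on chromosome 1, 0.655 and 0.981. Brca1, the tumour suppressor of homologous recombination, was the closest of this group to 1.5: it was at 20.2 FPKM against 27.5 and 26.8, and at 15.6 against 27.6 and 23.6, with ratios of 1.35 and 1.64. Bard1, with which it forms a ubiquitin ligase, had 0.808 and 0.932. Top3a, the topoisomerase of the Blm complex, had 1.60 and 1.68, and Rpa1, the large subunit of the single-strand DNA binding protein RPA, 1.42 and 1.27. Of the 6 genes of this group, 4 were near 1.5 with LIF and 2 above.

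In signalling, Prkar1a, the regulatory subunit of protein kinase A, was closest to 1.5: it was at 47.3 FPKM against 67.4 and 68.6 with LIF, and at 55.1 against 86.7 and 91.3 after LIF removal, with ratios of 1.44 and 1.62. The adaptor Crk had ratios of 1.48 and 1.67, the JNK pathway kinase Map2k4 1.48 and 1.62, the adaptor Grb2 1.36 and 1.21, the retinoic acid receptor Rara 1.55 and 1.21, and the 14-3-3 protein Ywhae 1.29 and 1.36. Of the 8 signalling genes, 6 were near 1.5 with LIF and 5 after LIF removal. Erbb2, the receptor tyrosine kinase HER2, was the member with the lowest level, at 3.15 FPKM against 5.48 and 4.99 with LIF and at 6.88 against 5.75 and 7.27 after LIF removal. Its ratio of 1.66 with LIF and 0.946 after LIF removal was the widest gap between media, and the sole ratio under 1. The wild type library without LIF lay between the knockout libraries.

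Of the 11 transcription and chromatin genes, 9 were near 1.5 with LIF and 2 above. After LIF removal 4 were near, 5 below and 2 above. Cbx1, a heterochromatin protein 1 that reads methylated histone H3, was at 188 FPKM against 291 and 338 with LIF, and at 171 against 244 and 244 after LIF removal. Its ratios of 1.67 and 1.42 were the closest of the group to 1.5 over both media. Med1 of the Mediator complex had ratios of 1.58 and 1.68, with 1.16 and 1.09 for Med14 and 1.10 and 1.06 for Med17, its partners on the X chromosome and chromosome 9. The histone acetyltransferases Kat7 and Kat2a had 1.41 and 1.77, and 1.43 and 1.27. The kinase Cdk12, which phosphorylates the tail of RNA polymerase II, had 1.49 and 1.298, and the corepressor Ncor1 1.44 and 1.43. The chromatin remodelling subunits Smarce1 and Smarcd2 had 1.52 and 1.18, and 1.47 and 1.23, against 0.998 and 0.895 for the ATPase Smarca4. Cbx2, a Polycomb reader, was at 11.7 FPKM against 20.3 and 17.0 with LIF, but at 15.5 against 15.0 and 19.5 after LIF removal, so that the wild type library lay between the knockout libraries there. Its ratios were 1.60 and 1.11.

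Of the RNA processing and translation genes, Eftud2, a GTPase of the U5 snRNP, was closest to 1.5, at 107 FPKM against 185 and 173, and at 108 against 150 and 145, with ratios of 1.67 and 1.36. Prpf8, which sits beside it in the U5 snRNP, had 1.24 and 1.33, and Snrnp200, the helicase of the same particle on chromosome 2, 0.831 and 0.856. Prpf6, also listed as a partner of Prpf8 and also on chromosome 2, had 1.09 and 1.14. The helicase Ddx42 had 1.55 and 1.35. With LIF, 3 of these 6 genes were below the span, 2 near and 1 above (Dhx8). In the group of nuclear transport, nucleolar and ubiquitin tagging genes none of 4 was near 1.5 with LIF and 2 were after LIF removal. The exportin Xpo1 had 1.27 and 1.34 and the nucleoporin Nup85 1.27 and 1.24. Spop, a substrate adaptor of a Cul3 ubiquitin ligase, was the closest of them to 1.5 over both media, at 31.3 FPKM against 57.8 and 60.4 with LIF, above the span, and at 38.3 against 51.2 and 53.9 after LIF removal. Its ratios were 1.89 and 1.37, and Cul3 had 0.868 and 1.002.

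Protein folding and autophagy genes were near 1.5 in 4 of 5 cases in both media, Sqstm1 being the other. P4hb, the protein disulfide isomerase of the endoplasmic reticulum, was at 231 FPKM against 370 and 353, and at 262 against 346 and 381, with ratios of 1.56 and 1.39. The calnexin gene Canx had ratios of 1.41 and 1.54, the chaperone Hspa4 1.35 and 1.304, and the autophagy receptor Nbr1, which acts with p62, 1.61 and 1.47. In the last group, Cltc, the clathrin heavy chain, was at 96.8 FPKM against 136 and 125, and at 104 against 188 and 156. Its ratios were 1.35 and 1.66, while the light chain genes Clta and Cltb on other chromosomes had 0.803 and 0.901, and 0.947 and 0.679. The gamma-tubulin gene Tubg1 had 1.56 and 1.39, and the dynein regulator Pafah1b1 (Lis1) 1.22 and 1.52. The cytoplasmic gamma-actin gene Actg1 had 1.54 and 1.15, and Fasn, the fatty acid synthase, 1.54 and 1.11. Actb, the beta-actin gene on chromosome 5, had 1.21 and 0.862, so that both actin genes had the higher ratio with LIF.

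To set the members against genes of the same complexes and pathways, 101 partner genes were listed, and 72 of them, with at least 5 FPKM and a place outside chromosomes 6, 8 and 11, were counted. A further 25 partners of that level lay on chromosomes 6, 8 or 11 and were left out of the count. With LIF, none of the 72 partners was near 1.5, all being below, with a median of 0.943 and a range from 0.655 to 1.26. After LIF removal, 1 was near 1.5, Mdm2, and 71 below, with a median of 0.915 and a range from 0.426 to 1.34. Of all genes of at least 5 FPKM outside chromosomes 6, 8 and 11, 5.85% and 6.98% were near 1.5 in the 2 media. Members ran from 1.06 and 0.946 upward in the same media, so the ranges overlapped at the low end of the members. Partners left out on chromosomes 6 and 8 were mixed. On chromosome 8, Gabarapl2 had ratios of 1.38 and 1.37 and Map1lc3b 0.686 and 0.781, and on chromosome 6, Ing4 had 1.01 and 1.47. The knockout libraries also differed on chromosome 8. With LIF, Gab1 was at 117 FPKM in wild type cells against 140 and 102 in knockout 1 and 2. Nup133 was at 43.0 against 50.3 and 29.6. With LIF the chromosome 8 partners were lower in knockout 2 than in knockout 1, except Gabarapl2 and Tubgcp3. After LIF removal the exceptions were Map2k7, Bcar1 and Tubgcp3. The 7 partners that themselves lie on chromosome 11 were mixed: Ndel1 had 1.40 and 1.39, Stat3 1.49 and 1.41, Kpnb1 1.37 and 1.19, Acly 1.40 and 1.16, Pcgf2 1.22 and 1.24, Acaca, at 6.49 FPKM on average, 0.983 and 0.985, and Egfr, at 2.17 FPKM on average and so under the bound for members, 2.41 and 2.94.

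The class of a gene often differed between media. Of the 47 members, 17 were near 1.5 in both media, 20 in 1 medium only and 10 in neither; 6 were below in both media and 4 above in both. Across members, Spearman's correlation between the ratios in the 2 media, which share no library, was 0.40 (n = 47), and it was 0.61 over the 709 other genes of the chromosome. The ratio was higher with LIF for 26 members and higher after LIF removal for 21. A gap of more than 1.3 times between media was seen for 6 members. On the log2(FPKM + 1) scale the knockout effect after LIF removal less that with LIF was -0.66 (SE 0.34) for Erbb2, -0.49 (SE 0.32) for Cbx2, -0.46 (SE 0.23) for Fasn, -0.45 (SE 0.22) for Spop, -0.43 (SE 0.24) for Jmjd6 and -0.42 (SE 0.19) for Actg1, the same 6 members. None of the 47 passed limma's interaction test (adjusted p = 0.9996 for these 6), nor did any of 11785 genes tested (0%). Without adjustment, 340 genes and no member had a p under 0.05. With 1 wild type library a medium, differences of the size seen could not be separated from the spread between libraries.

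**Figure D4:**
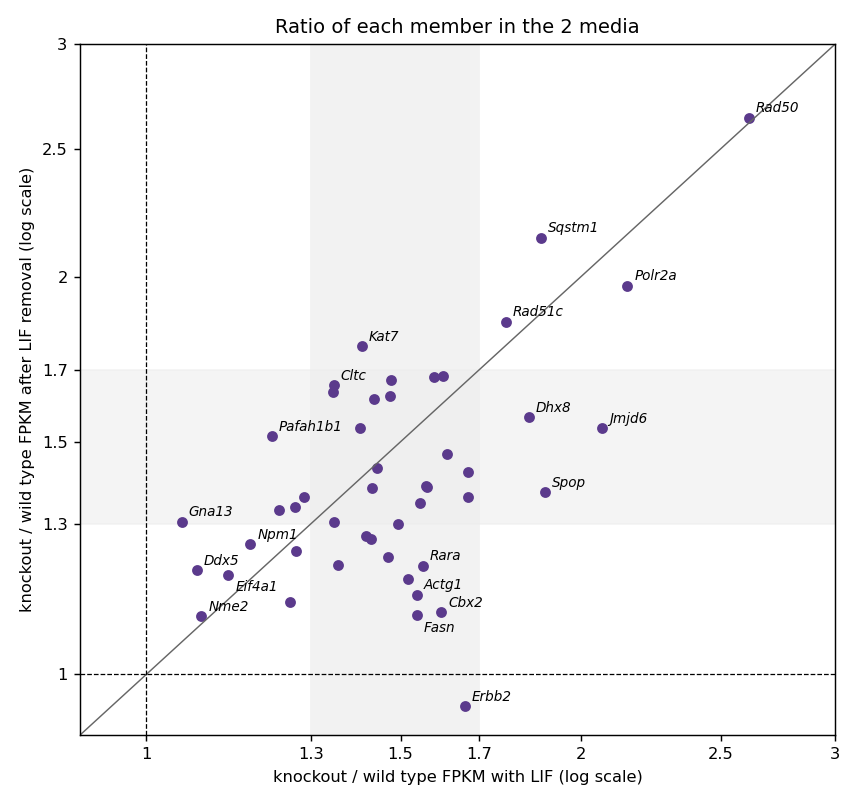
Knockout to wild type ratio of each of the 47 members with LIF (x axis) and after LIF removal (y axis), both on log scales, with the spans from 1.3 to 1.7 shaded, the diagonal as a line of equal ratios and dashed lines at 1. Rad50, Polr2a, Sqstm1 and Rad51c lie above the span in both media, Erbb2 lies in the span with LIF and under 1 after LIF removal.

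Over the members, the knockout libraries of a medium were alike in level. The ratio of knockout 2 to knockout 1 had a median of 0.976 over the members with LIF, with a range from 0.767 (Rad50) to 1.16 (Cbx1). After LIF removal the median was 0.990 and the range from 0.579 (Rad51c) to 1.39 (Smarce1). Knockout 2 was above knockout 1 for 20 members with LIF and for 21 after LIF removal, so neither library was generally the higher. All 4 library ratios of a gene lay between 1.3 and 1.7 for 8 members.

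LIF removal, which the choice of members did not use, gave a call for a share of them a little under that of all genes. Over both genotypes 8 of the 47 passed (17.0%), 6 lower and 2 higher, against 21.4% of all 11785 genes tested, 12.7% lower and 8.73% higher. In knockout cells alone 2 of the 47 passed, 1 higher and 1 lower, against 6.92% of all genes, 3.05% higher and 3.88% lower. The median ratio after to before LIF removal was 1.01 in the members in both genotypes, against 0.959 in wild type and 0.968 in knockout cells over all genes of at least 5 FPKM. For 39 members the direction was the same in both genotypes. The summed pluripotency markers were lower in all 3 libraries without LIF, as given above, and their part in these results was not tested.

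The largest response was that of Rara, which encodes a nuclear receptor for retinoic acid. It went from 38.7 to 23.3 FPKM in wild type cells, from 65.9 to 31.2 in knockout 1 and from 54.5 to 25.1 in knockout 2, and all 3 libraries without LIF lay below all 3 with it. On the log2(FPKM + 1) scale it fell by 0.95 (SE 0.14, adjusted p = 0.00423 by limma) over both genotypes, and by 1.07 (SE 0.17, adjusted p = 0.0247) in knockout cells. Map2k4 went from 24.97 to 34.6 FPKM in wild type cells and from 35.4 and 38.3 to 54.1 and 58.4 in knockout cells. It rose by 0.55 (SE 0.10, adjusted p = 0.00951), and by 0.60 (SE 0.13, adjusted p = 0.0492) in knockout cells alone, where the call was lost without any single knockout library (adjusted p = 0.0919 to 0.217). The wild type library without LIF was close to the knockout libraries with LIF, so the levels of the media overlapped across genotypes. Over both genotypes, Rara and Map2k4 remained past the threshold under all 12 alternatives run, among them each library left out; in knockout cells the call of Rara was lost without knockout 1 with LIF (adjusted p = 0.0843) and without knockout 2 after LIF removal (0.0657). With no filter on low values, neither gene passed in knockout cells (adjusted p = 0.138 for both).

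The other 6 calls were closer to the threshold. Trp53 fell by 0.44 (SE 0.09, adjusted p = 0.0157), with the values given above, and was lower without LIF in each of the 3 pairs of libraries of a number. Rpa1, at 150 FPKM in wild type cells with LIF and 119 without, and at 219 and 206 against 149 and 153 in knockout cells, fell by 0.44 (SE 0.09, adjusted p = 0.0136). Sqstm1 fell by 0.44 (SE 0.11, adjusted p = 0.0275) and Rad51c by 0.69 (SE 0.20, adjusted p = 0.0437). Tubg1, at 54.6 against 44.4 FPKM in wild type cells and at 90.9 and 79.8 against 61.9 and 61.3 in knockout cells, fell by 0.40 (SE 0.10, adjusted p = 0.0270). Prkar1a rose by 0.33 (SE 0.09, adjusted p = 0.0434).

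Of these, the calls of Tubg1 and Prkar1a were lost with any single library left out (adjusted p = 0.0519 to 0.0941 and 0.0742 to 0.139). That of Rad51c was lost without any library but knockout 1 after LIF removal (up to 0.153), and that of Sqstm1 without any but knockout 2 after LIF removal (up to 0.145). Trp53 was not past the threshold without either wild type library or knockout 2 with LIF (up to 0.0741), and Rpa1 without either wild type library or knockout 1 with LIF (up to 0.0538). For Trp53 and Rpa1 the knockout libraries without LIF stood close to the wild type library with LIF.

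**Figure D5:**
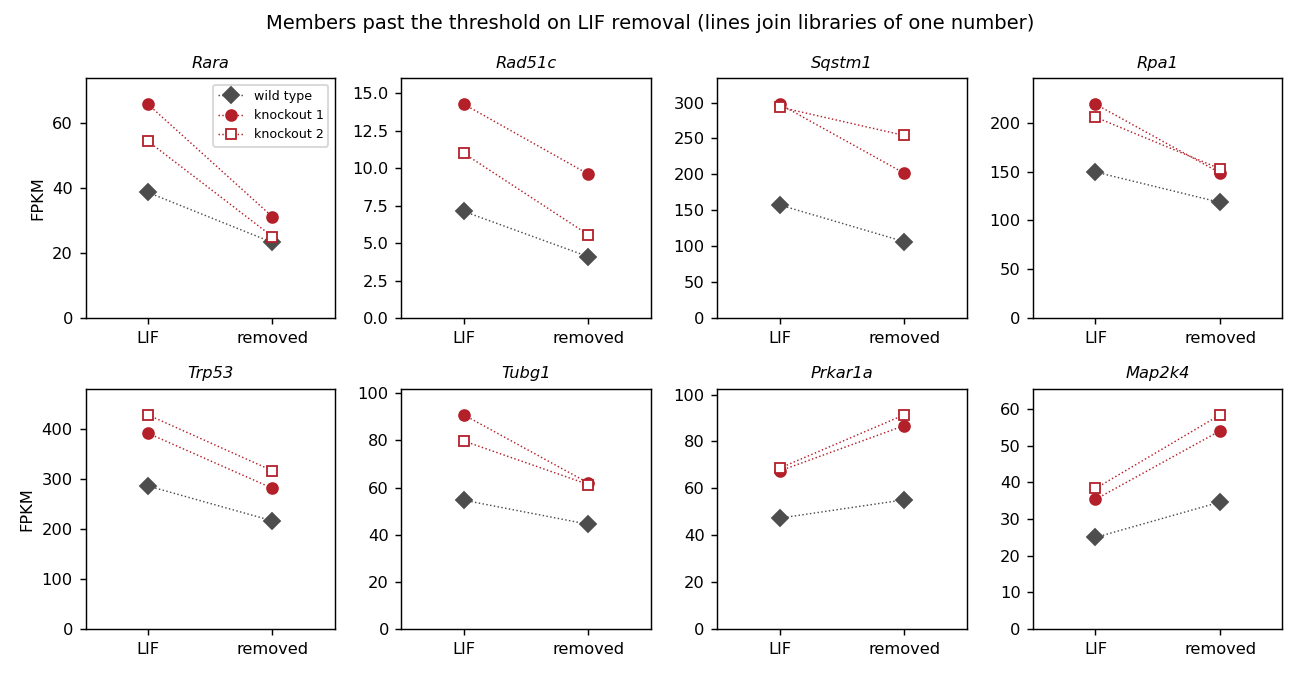
FPKM (y axis, from 0) with LIF and after its removal (x axis) for the 8 members past the threshold on LIF removal over both genotypes; diamonds, wild type; filled circles, knockout 1; open squares, knockout 2. Dotted lines join libraries of the same number, which the labels do not state to be the same clone. Rara, Rad51c, Sqstm1, Rpa1, Trp53 and Tubg1 are lower and Prkar1a and Map2k4 higher without LIF in all 3 pairs.

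The 5 listed genes under 5 FPKM on average were Nf1 (4.79), Stat5b (4.17), Kpna2 (0.942), Cbx8 (0.555) and Sumo2 (0.271), and the members just inside the bound were Erbb2 (5.59) and Rad51c (8.62). Nf1, the Ras inhibitor neurofibromin, had ratios of 1.43 and 1.84, and Stat5b, a transcription factor of cytokine signalling, 1.35 and 1.11. The importin Kpna2, between 0.465 and 1.32 FPKM, and the protein modifier Sumo2, between 0 and 0.639, have near-identical copies elsewhere in the genome that can share their fragments, so their values are uncertain and no ratio is read from them. Cbx8, a Polycomb reader beside Cbx2, was between 0.224 and 0.806 FPKM in the 6 libraries, too low to compare, and the pair of neighbours Cbx2 and Cbx8 therefore cannot be set against each other.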

How the data were processed

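The authors deposited FPKM for 25170 gene symbols in 6 libraries (total RNA, 150 bp paired-end reads, per the labels' protocols). The tools named are STAR and Cufflinks and the build is mm10, per the submitters' processing notes; their versions, the annotation and the strand setting are not given in the sources read here. Read counts were not used, so the depth behind a value is unknown. Against the wild type library with LIF, ratios of low FPKM gave relative depths from 0.843 to 1.08, from 12.2% to 15.5% of genes at the commonest ratio (both under 0.3 FPKM, within 0.01 on the log2 scale).

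Ratios were taken on FPKM as deposited, without a pseudocount. Limma 3.58.1 (R 4.3.3) was fitted with an intensity trend on log2(FPKM + 1) for the 11785 genes averaging 1 FPKM or more, in all 6 libraries: genotype plus medium for contrasts over both media, 4 groups for knockout cells alone and for the interaction, with Benjamini-Hochberg adjustment over all genes and a threshold of 0.05. A fold on this scale understates the change of low genes. The procedure was tested on simulated data with independent noise and effects larger than most differences of the members, so calls of the members' size were not covered. Genes were placed by GENCODE annotation of GRCm38 (the same build as mm10).

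The members and the lists of partners and markers were chosen with earlier results of these data known. Every member is named with its ratios. FPKM of each library is given for Hnrnpf, the 6 highest and 6 lowest members by the geometric mean of both media, the member of each role closest to 1.5, close paralog pairs, and members past the threshold on LIF removal. Library values of Erbb2, the neighbour medians, the level split and the intervals under other settings were added after seeing the data. Alternatives were other scalings, pseudocounts and filters, no trend, a replicate block and each library left out.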

Additional observations from a re-analysis of the deposited data

How the results depend on the processing

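The median ratio of the members with LIF moved from 1.48 to 1.51 with median ratio scaling, 1.56 with scaling on genes outside chromosomes 6, 8 and 11 and 1.52 with quantile normalization; after LIF removal it moved from 1.36 to 1.41 with scaling outside these chromosomes and 1.45 with quantile normalization. With 1 knockout library left out, it ranged from 1.43 to 1.48 and from 1.36 to 1.41. Members called on LIF removal over both genotypes numbered 8, and 4 without the intensity trend, with 2 to 5 when a library was left out. In knockout cells the 2 calls became 1 with a pseudocount of 0.1, 0 with no filter on low values, 1 without the trend and 0 to 2 when a library was left out. With the replicate block, the knockout number as a term, 8 members were called. The labels do not say that a number is the same clone in both media. Over the 11785 genes tested, the deviation of knockout 1 from the knockout mean correlated at 0.37 between the 2 media. The genotype count of 28 was 12 with no filter and 0 to 24 when a library was left out. The cause of these shifts was not tested. No member was called for the difference between media under any alternative. Erbb2 was the only member whose genotype difference fell under 0 in any of the 12 alternatives, at -0.08 on the log2 scale. With no counts and 1 wild type library a medium, the error of a single ratio is not known from replicates of the wild type.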
